A study of Mus musculus with 32 samples.

Results

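The 6 genes described here, *Gatm*, *Gamt*, *Slc6a8*, *Ckb*, *Ckmt1* and *Ckmt2*, make creatine, carry it into cells and cycle it as phosphocreatine. They were taken by name from the expression tables of liver and of 3 fat depots, and all 6 were found among the 24646 genes of each table. The depots were the visceral white fat beside the epididymis (eWAT), the subcutaneous white fat of the groin (iWAT) and brown adipose tissue (BAT). The mice were male whole-body *Gpr146* knockouts (*Gpr146*-/-, KO) and their wild-type littermates (WT) on a C57BL/6J background. Both genotypes were 20 weeks old, had eaten a high-fat diet (HFD) for 3 months and were killed after an overnight fast, so that no lean or fed group stands beside them. GPR146, the protein that the knockouts lack in every tissue, is an orphan G protein-coupled receptor. Each tissue of 4 WT and 4 KO mice was hybridized to 1 Affymetrix Mouse Gene 2.1 ST array per mouse, which gave 32 arrays. The question put to these genes was whether their expression differs between the genotypes in each fat depot, with liver beside it.

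Creatine is made in a pair of steps. Glycine amidinotransferase, the product of *Gatm*, moves the amidino group of arginine onto glycine, and guanidinoacetate methyltransferase, the product of *Gamt*, then adds a methyl group from S-adenosylmethionine. Liver is known for the second step and kidney for the first, and tissues that make little creatine import it through the sodium- and chloride-dependent transporter encoded by *Slc6a8*. Creatine kinases pass phosphate between ATP and creatine. *Ckb* encodes the cytosolic brain-type kinase, *Ckmt1* the ubiquitous mitochondrial kinase and *Ckmt2* the sarcomeric mitochondrial kinase of striated muscle. In thermogenic fat, repeated phosphorylation and dephosphorylation of creatine is a known route of energy dissipation that does not depend on UCP1.

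In eWAT, *Slc6a8*, *Ckb* and *Gatm* were lower in KO mice. The promoters of *Ckb* and *Gatm* are shown because both were among the genes called lower there (10.7% of all genes at a limma adjusted p below 0.05). The windows are 300 bases around the annotated start of the gene in RefSeq on GRCm38.p6, 5′ to 3′ on the strand of the gene. Capitals mark the word TATAAA, a common core promoter element, and the word CCAAT, a common element just upstream of it, on either strand. *Slc6a8* is named without a window. The *Ckb* window is chr12:111672289-111672588 on the minus strand and the *Gatm* window is chr2:122611228-122611527 on the minus strand.
Ckb: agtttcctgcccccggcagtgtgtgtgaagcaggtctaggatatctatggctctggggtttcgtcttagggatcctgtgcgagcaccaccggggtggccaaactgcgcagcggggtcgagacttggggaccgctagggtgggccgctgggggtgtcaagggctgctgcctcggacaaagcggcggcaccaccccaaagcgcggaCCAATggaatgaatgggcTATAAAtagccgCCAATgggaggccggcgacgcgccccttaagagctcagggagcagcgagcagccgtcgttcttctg
Gatm: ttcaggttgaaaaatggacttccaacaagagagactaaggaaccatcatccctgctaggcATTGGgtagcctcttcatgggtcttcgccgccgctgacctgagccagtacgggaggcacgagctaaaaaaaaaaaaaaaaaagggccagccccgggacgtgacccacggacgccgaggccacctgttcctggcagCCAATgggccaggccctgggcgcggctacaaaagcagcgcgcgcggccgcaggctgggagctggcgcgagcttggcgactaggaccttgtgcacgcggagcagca

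The *Ckb* window held TATAAA starting at position -28 from the start site, between CCAAT at -46 and CCAAT at -16. The *Gatm* window held no TATAAA, and held CCAAT at -55 and, on the opposite strand, at -190. Of the 32851 promoter windows in the reference, 13.62% held TATAAA and 37.41% held CCAAT on either strand. The 5 other words searched on both strands were CACGTG (7.15% of all windows), CAGCTG (16.3%), GGGCGG (35.66%), TGACTCA (5.2%) and AGGTCA (16.26%). Of these, *Ckb* held none and *Gatm* held AGGTCA at -156 on the opposite strand. The *Gamt* window held GGGCGG 4 times on the opposite strand and no TATAAA or CCAAT, and the *Ckmt2* window held CCAAT at -145 and, on the opposite strand, at -69, with CAGCTG at -107 and GGGCGG at -46 on the opposite strand. *Ckmt1* had a pair of windows. The first held CAGCTG at -1 and, on the opposite strand, TATAAA at -31 and AGGTCA at -179, and the second held CCAAT at -242 on the opposite strand. These are matches of letters and not measured binding sites.

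The deposited values are log2 expression values, in 1 table per tissue. *Gpr146* itself was lower in every KO array than in any WT array of the same tissue. In liver its WT values lay between 6.17 and 6.32 and its KO values between 4.26 and 4.63. The difference was -1.77 on the log2 scale in liver, -1.53 in eWAT, -1.55 in iWAT and -1.16 in BAT (limma adjusted p = 6.55e-06, 0.00823, 0.221 and 0.0727). The titles of the 4 KO liver samples name a WT mouse, while every other label of those samples names KO. The defining markers fitted the labels of liver and BAT: the mean of 6 hepatocyte markers was 11.0 to 11.1 in liver and at most 4.70 elsewhere, and the mean of 9 brown adipocyte markers was 7.84 to 8.54 in BAT and at most 4.67 elsewhere. Between the white depots, mesothelium markers averaged 4.40 to 6.21 in eWAT and 2.68 to 3.10 in iWAT. Epididymis markers averaged 1.97 to 2.26 in eWAT and 2.26 to 2.81 in iWAT. Markers of other cells also set some arrays apart. Skeletal muscle markers averaged 6.12, 7.04 and 7.32 in BAT of WT mouse 2, WT mouse 3 and KO mouse 2, against 3.22 to 3.82 in the 5 other BAT arrays. B cell markers averaged 7.84, 7.82, 7.45 and 5.72 in iWAT of WT mice 1 and 2 and KO mice 2 and 4, against 3.11 to 3.53 in the 4 other arrays. Muscle markers averaged 4.76 in iWAT of WT mouse 4 against 3.45 to 3.77 in the 7 other iWAT arrays, and *Acta1*, the skeletal muscle actin, read 6.79 and 6.54 in iWAT of WT mice 3 and 4 against 4.20 to 4.46 in the others. Without WT mouse 3 or without WT mouse 4, 0 of the 6 creatine genes and 0 of all 24646 genes were called in iWAT. With all iWAT arrays 0 of all genes were called too, so these fits cannot show the part of the muscle. In eWAT, B cell markers averaged 3.93 in KO mouse 3 against 2.40 to 2.77 in the other arrays. *Acta1* there ranged from 4.43 in WT mouse 2 to 6.81 in WT mouse 3. With 4 mice per group, precision is set by the small number of arrays.

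**Figure D1:**
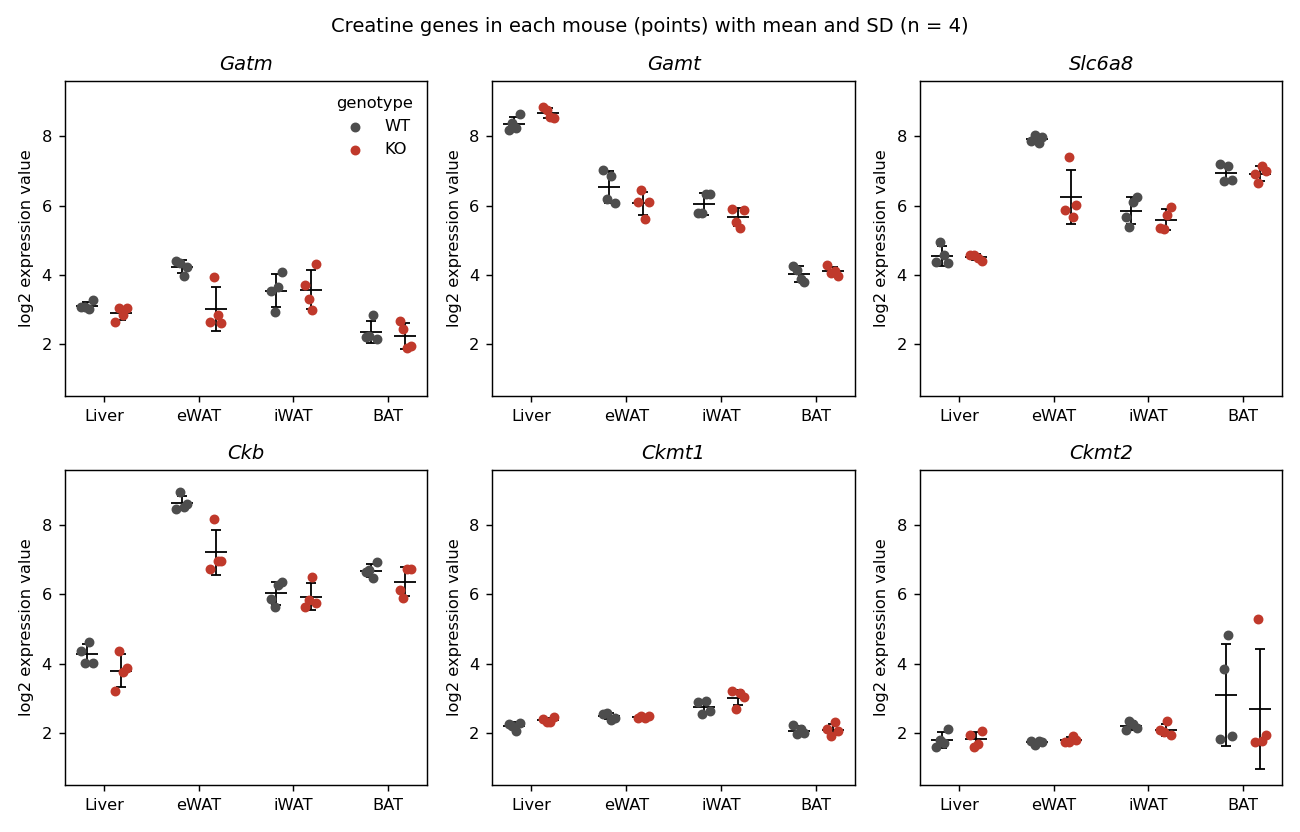
Log2 expression of the 6 creatine genes in each mouse (points, WT grey and KO red) by tissue, with the group mean (long dash) and SD (bars, n = 4 mice). The gap between WT and KO is seen in eWAT for *Gatm*, *Slc6a8* and *Ckb*, where KO mouse 2 is the highest KO point, and the wide spread of *Ckmt2* in BAT comes from 3 mice.

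The order of the tissues by WT mean differed among the genes, apart from *Slc6a8* and *Ckb*, which shared theirs. The tables differed in scale, with array medians of 3.00 to 3.06 in liver, 3.13 to 3.18 in eWAT, 3.65 to 3.73 in iWAT and 2.82 to 2.86 in BAT. Levels were therefore described, without a test, both as log2 values and as the percentile of the gene among the 24646 genes of its array. Percentiles of different genes rest on different probes and were not set against each other.

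*Gamt*, the methyltransferase, was highest in liver. Its WT mean was 8.36 ± 0.20 (SD, n = 4) on the log2 scale in liver, 6.54 ± 0.47 in eWAT, 6.06 ± 0.32 in iWAT and 4.03 ± 0.22 in BAT. Its WT percentile lay between 97.3 and 98.2 in liver and between 62.7 and 69.0 in BAT. The eWAT range of 83.1 to 91.7 overlapped the iWAT range of 77.9 to 85.6.

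*Gatm*, which encodes the first enzyme, lay near the middle of the WT arrays. Its WT mean was 4.23 ± 0.19 (SD, n = 4) in eWAT, 3.55 ± 0.48 in iWAT, 3.11 ± 0.12 in liver and 2.36 ± 0.32 in BAT. By percentile liver (49.7 to 54.8) came before iWAT (36.6 to 56.1), and the ranges of these tissues and of BAT (32.9 to 50.1) overlapped.

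*Slc6a8*, the importer, was highest in WT eWAT, at 7.92 ± 0.11 (SD, n = 4). It stood at 6.95 ± 0.26 in BAT, 5.86 ± 0.39 in iWAT and 4.56 ± 0.29 in liver. The percentile ranges of eWAT (95.9 to 96.8) and BAT (92.0 to 94.9) did not overlap, while those of iWAT (72.7 to 83.6) and liver (69.6 to 76.3) did.

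*Ckb* followed the same order of tissues. Its WT mean was 8.64 ± 0.21 (SD, n = 4) in eWAT, 6.68 ± 0.19 in BAT, 6.03 ± 0.33 in iWAT and 4.27 ± 0.30 in liver. No percentile ranges of neighbouring tissues overlapped, with 98.1 to 98.9 in eWAT, 90.6 to 93.4 in BAT, 76.2 to 84.9 in iWAT and 65.6 to 73.1 in liver.

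The mitochondrial kinases lay in the lower part of most arrays. *Ckmt1* had WT means between 2.07 ± 0.12 in BAT and 2.75 ± 0.18 (SD, n = 4) in iWAT, and its percentile in WT arrays ran from 23.2 to 39.9 over all tissues. *Ckmt2* had WT means of 1.73 ± 0.06 in eWAT, 1.80 ± 0.23 in liver and 2.21 ± 0.12 in iWAT, with percentiles between 7.52 and 24.9. In BAT its WT mean was 3.10 ± 1.48, with percentiles between 18.8 and 74.5. At the low end of the scale a change is hard to see, and a level there does not show that a gene is silent.

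In eWAT, the transcripts of the creatine importer, the cytosolic kinase and the first enzyme of synthesis were lower in KO mice. *Slc6a8* was 3.20-fold lower, *Ckb* 2.69-fold lower and *Gatm* 2.32-fold lower, and no KO value of these genes reached the lowest WT value. *Gamt* and both mitochondrial kinases did not pass the test. The question was whether the expression of the creatine genes differs between genotypes in the depot.

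*Slc6a8* read 7.86, 8.04, 7.81 and 7.98 in WT mice 1 to 4 and 5.89, 7.40, 5.67 and 6.02 in KO mice 1 to 4. All WT values lay within a narrow band, and KO mouse 2 stood well above the other KO mice and still below every WT mouse. The log2 change was -1.68 (SE 0.32, limma adjusted p = 0.0123).

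*Ckb* read 8.48, 8.95, 8.53 and 8.61 in WT mice and 6.75, 8.17, 6.97 and 6.97 in KO mice. KO mouse 2 was again the highest of its group, and the groups did not overlap. The log2 change was -1.43 (SE 0.28, limma adjusted p = 0.0128).

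*Gatm* read 4.39, 4.34, 3.97 and 4.24 in WT mice and 2.65, 3.94, 2.86 and 2.62 in KO mice. KO mouse 2 lay just under WT mouse 3, and the other KO mice lay more than a log2 unit lower. The log2 change was -1.22 (SE 0.27, limma adjusted p = 0.0178). The *Gatm* call was lost without WT replicate 2, WT replicate 4 or KO replicate 4, with adjusted p between 0.0502 and 0.0567, and the calls of *Ckb* and *Slc6a8* remained without any 1 of the 8 arrays. Without KO replicate 2 the changes were -2.06 for *Slc6a8*, -1.74 for *Ckb* and -1.52 for *Gatm*.

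*Gamt* read 7.02, 6.19, 6.86 and 6.07 in WT mice and 6.12, 6.44, 5.62 and 6.10 in KO mice. The groups overlapped, with a log2 change of -0.47 (SE 0.24, limma adjusted p = 0.224) and a 95% interval from -1.01 to 0.07. *Ckmt1* ranged from 2.39 to 2.57 in WT mice and from 2.43 to 2.50 in KO mice, with a change of -0.02 (interval -0.18 to 0.14). *Ckmt2* ranged from 1.64 to 1.77 in WT mice and from 1.74 to 1.92 in KO mice, with a change of 0.07 (interval -0.10 to 0.24).

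In all, 3 of the 6 genes were called lower in eWAT and 0 higher. The background in this depot was high: 15.2% of all 24646 genes were called there, 10.7% lower and 4.57% higher. With quantile normalization the split over all genes was 1830 higher and 1910 lower, against 1126 higher and 2632 lower as deposited, and the 3 creatine genes kept their calls. The groups did not overlap for 3 of the 6 genes, against 21.6% of all genes. The median change of the 6 genes was -0.84 on the log2 scale, and that of all genes was 0.03. With the methods' t-test in place of limma, 0 of the 6 genes and 38 of all genes passed after adjustment, and the 3 genes had adjusted p between 0.0728 and 0.0847.

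**Figure D2:**
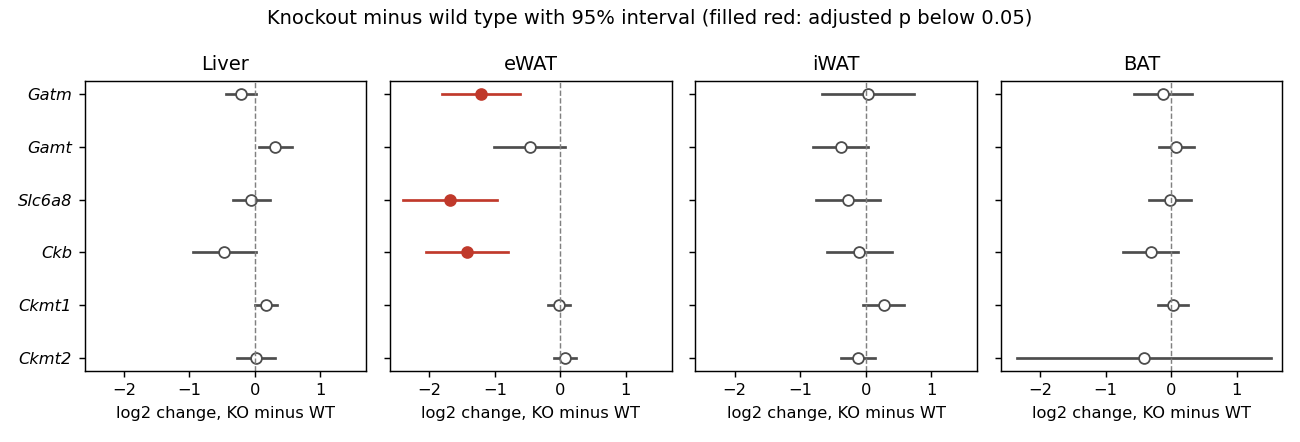
Log2 change (KO minus WT) of each creatine gene in each tissue, with its 95% interval from limma and filled red points where the adjusted p is below 0.05. The 3 filled points are *Gatm* (-1.22), *Slc6a8* (-1.68) and *Ckb* (-1.43) in eWAT, and the widest interval is that of *Ckmt2* in BAT, from -2.36 to 1.52.

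Markers of cell types also differed between the genotypes in eWAT. All 9 macrophage markers were called lower in KO eWAT, by -0.91 to -3.44 on the log2 scale. They included *Cd68* (-2.26), a lysosomal glycoprotein of macrophages, and *Trem2* (-3.12), a receptor of lipid-associated macrophages. The mean of the 9 markers was 9.57, 9.57, 9.71 and 9.59 in WT mice and 6.01, 9.18, 7.45 and 6.37 in KO mice. KO mouse 2, the KO mouse with the highest *Ckb*, *Gatm* and *Slc6a8*, was thus also the one with macrophage markers nearest to the WT level. Among the 3 other KO mice, KO mouse 3 had the highest marker mean and the highest *Gatm*, shared the highest *Ckb* with KO mouse 4 at 6.97, and had the lowest *Slc6a8*.

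Other markers moved as well. Of the 4 mesothelium markers, *Upk3b* (-1.62) and *Msln* (-0.98) were called lower. Of the 6 adipocyte markers, 5 were called higher, with *Adipoq*, the adiponectin gene, at 0.51, and *Lep*, the leptin gene, was called lower at -0.98. With the mean of the macrophage markers as a covariate, chosen after seeing the data, the changes were -0.62 for *Slc6a8*, -0.43 for *Ckb* and -0.25 for *Gatm* (limma adjusted p = 0.562, 0.578 and 0.732), and 1 gene of all 24646 was called. The covariate was itself lower in every KO mouse than in any WT mouse, so it shares most of its difference with the genotype. Fewer cells of a type and less RNA per cell cannot be told apart in whole tissue, and which cells of eWAT carry these transcripts was not measured.

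**Figure D3:**
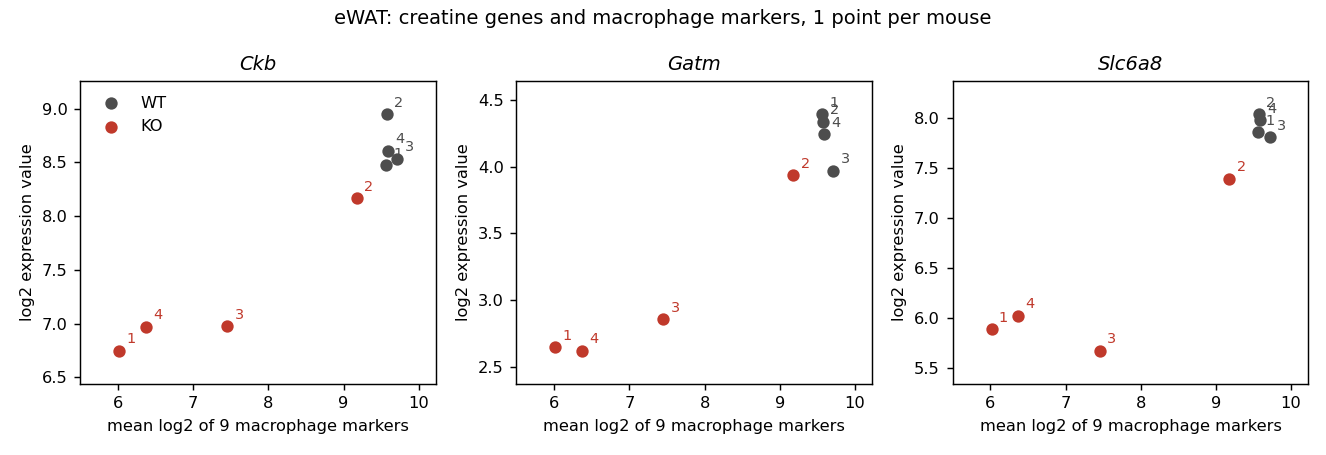
Log2 expression of *Ckb*, *Gatm* and *Slc6a8* in eWAT (vertical axes) against the mean log2 value of 9 macrophage markers (horizontal axes), 1 point per mouse, numbered by mouse. The 4 WT mice lie together at the right, and KO mouse 2, with a marker mean of 9.18, is the KO mouse closest to them in all 3 panels.

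The genes around the creatine pathway were read from 3 lists of 11, 12 and 12 genes, and in eWAT their calls went both ways. Among 11 partners that handle phosphocreatine and high-energy phosphate, 0 were called higher and 2 lower. *Vdac2*, a channel of the mitochondrial outer membrane, fell by 0.47 on the log2 scale, with WT values of 7.56 to 7.76 and KO values of 7.06 to 7.37 (limma adjusted p = 0.0123), and *Slc25a5*, an ADP/ATP carrier of the inner membrane, fell by 0.49. The muscle-type kinase *Ckm*, the phosphatase *Alpl* and the putative creatine transporter *Slc16a12* were not called.

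Among the 12 genes of arginine and glycine supply, the substrates of the *Gatm* reaction, 1 was called higher and 3 lower. *Slc7a1*, a cationic amino acid transporter that imports arginine, fell by 0.96, with WT values of 4.40 to 4.72 and KO values of 3.24 to 3.99 (limma adjusted p = 0.00936). *Slc7a2*, a second such transporter, fell by 0.29. *Shmt2*, the mitochondrial serine hydroxymethyltransferase that makes glycine, fell by 0.38, and its cytosolic counterpart *Shmt1* rose by 0.45.

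Among the 12 genes of methyl group supply and use, which feed and compete with the *Gamt* reaction, 3 were called higher and 0 lower. *Mat2b*, the regulatory subunit of the enzyme that makes S-adenosylmethionine outside liver, rose by 0.38. *Cbs*, which commits homocysteine to transsulfuration, rose by 0.50 and *Bhmt*, which remethylates homocysteine, rose by 0.46. The *Bhmt* values were low in both groups, from 1.91 to 2.02 in WT mice and from 2.23 to 2.86 in KO mice. The medians over the lists were 0.01, -0.01 and 0.06 for partners, arginine and glycine supply, and methyl groups, beside 0.03 over all genes. In all, 9 of these 35 genes were called, against 15.2% of all genes, and with 1 array left out the number of calls ran from 2 to 10.

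**Figure D4:**
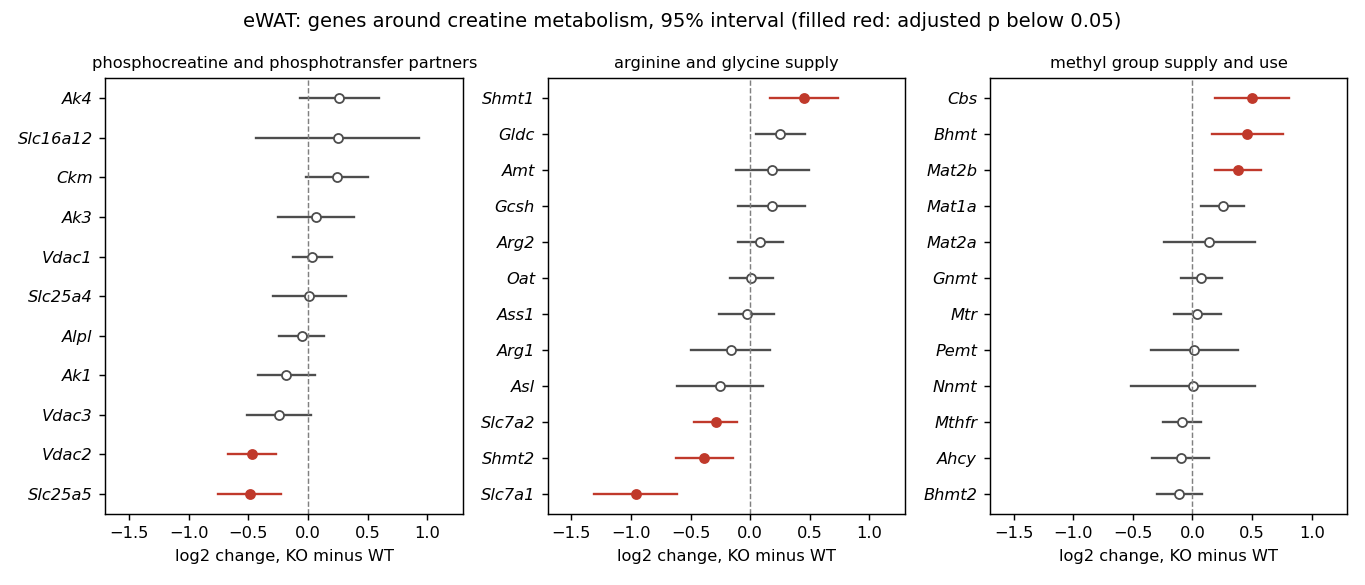
Log2 change (KO minus WT) in eWAT of the 35 genes of 3 lists around creatine metabolism, with 95% intervals and filled red points where the limma adjusted p is below 0.05. The longest shift is that of *Slc7a1* at -0.96, and the calls lie below 0 in the first list, on both sides of 0 in the second and above 0 in the third.

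In liver, limma called 0 of the 6 creatine genes and 0.661% of all genes. At an unadjusted p below 0.05, limma found 1 of the 6 and the methods' t-test 2. *Gamt*, the gene of the step for which liver is known, read 8.18, 8.38, 8.25 and 8.63 in WT mice and 8.86, 8.75, 8.58 and 8.52 in KO mice. The groups overlapped, and the log2 change was 0.31 (SE 0.11, limma adjusted p = 0.256) with a 95% interval from 0.07 to 0.56. Of the 6 genes, this was the smallest adjusted p in liver.

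*Ckb* read 4.38, 4.02, 4.63 and 4.03 in WT livers and 3.20, 4.36, 3.76 and 3.89 in KO livers, a change of -0.46 (SE 0.22, limma adjusted p = 0.389). KO mice 1, 3 and 4 lay below every WT mouse and KO mouse 2 lay among them. *Gatm* read 3.07, 3.07, 3.00 and 3.27 in WT livers and 2.65, 3.03, 2.85 and 3.05 in KO livers, a change of -0.21 (SE 0.10, limma adjusted p = 0.415). *Ckmt1* was the single creatine gene without overlap in liver, with WT values of 2.07 to 2.28 and KO values of 2.31 to 2.45, and its change of 0.16 (SE 0.08) did not pass the test (limma adjusted p = 0.390). Over all genes, 7.78% showed no overlap in liver.

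*Slc6a8* ranged from 4.33 to 4.96 in WT livers and from 4.40 to 4.59 in KO livers, with a change of -0.05 and a 95% interval from -0.33 to 0.23. *Ckmt2* ranged from 1.58 to 2.12 and from 1.60 to 2.04, with a change of 0.02 (interval -0.27 to 0.31). With 4 mice per group these bounds are not limits of detection. The larger liver change of *Ckb*, -0.46, was not called either (limma adjusted p = 0.389).

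Of the 35 surrounding genes limma called 0 in liver, and 17 had an unadjusted p below 0.05, as did 3271 of all 24646 genes. The methods' t-test found 11 before and 0 after adjustment. The smallest p-values belonged to *Asl* (0.56) and *Arg1* (0.41) of the arginine list, enzymes of the urea cycle, with limma adjusted p = 0.100 and 0.105. *Ak4* (-0.61) and *Alpl* (-0.40) came first among the partners, and *Bhmt2* (0.33) and *Ahcy* (0.31) among the methyl genes. *Alpl*, the tissue-nonspecific alkaline phosphatase that can split phosphocreatine, read 4.45, 4.79, 4.40 and 4.68 in WT livers and 4.20, 4.28, 4.23 and 3.99 in KO livers. All KO values lay below all WT values, and the call was not made (limma adjusted p = 0.117).

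In iWAT, limma called 0 of the 6 creatine genes and 0.0% of all genes, while 3803 genes had an unadjusted p below 0.05 and the methods' t-test called 1 gene. None of the 6 had an unadjusted p below 0.05 by either test. *Ckb* read 5.87, 5.64, 6.27 and 6.35 in WT mice and 5.65, 5.85, 6.49 and 5.74 in KO mice, a change of -0.10 (SE 0.22, limma adjusted p = 0.828). *Slc6a8* read 5.69, 5.39, 6.10 and 6.26 in WT mice and 5.34, 5.33, 5.73 and 5.95 in KO mice, a change of -0.27 (SE 0.22, limma adjusted p = 0.532). *Gatm* read 3.53, 2.93, 3.65 and 4.09 against 3.70, 3.31, 2.99 and 4.32, a change of 0.03 (SE 0.31). For all 3 genes the groups overlapped.

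*Gamt* read 5.78, 5.78, 6.33 and 6.34 in WT iWAT and 5.91, 5.54, 5.37 and 5.89 in KO iWAT, a change of -0.38 (SE 0.19, limma adjusted p = 0.355). *Ckmt1* ranged from 2.55 to 2.92 in WT mice and from 2.70 to 3.21 in KO mice, a change of 0.27 (limma adjusted p = 0.369). *Ckmt2* ranged from 2.08 to 2.35 and from 1.94 to 2.34, a change of -0.11 (limma adjusted p = 0.624). No creatine gene was free of overlap in iWAT, where 8.15% of all genes were.

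Of the 8 iWAT arrays, 4 had high B cell markers. Without these 4 arrays, which left 2 mice per genotype, *Gamt* stood at -0.70 and *Slc6a8* at -0.64 (limma adjusted p = 0.106 and 0.0966), *Gatm* at -0.52 and *Ckb* at -0.23. That choice was made after seeing the data, and 916 genes were called with it. Its limma unadjusted p was below 0.05 for *Slc6a8* (0.00910), *Gamt* (0.0113) and *Ckmt1* (0.0432), and for 5774 of all genes. With all arrays and the mean of the B cell markers as a covariate, *Gamt* stood at -0.41 (limma unadjusted p = 0.0226, adjusted p = 0.173). No other creatine gene had an unadjusted p below 0.05 with this covariate, while 5096 of all genes did and 97 were called. Macrophage markers were also lower in KO iWAT, from -0.72 to -2.01 for the 9 genes, with none called. Among the 35 surrounding genes limma called 0 with all arrays, 8 had an unadjusted p below 0.05 by either test, and the smallest p-values belonged to *Slc16a12* (-1.22) and *Ak4* (0.69), *Gcsh* (0.44) and *Arg2* (0.28), and *Cbs* (0.53) and *Mtr* (-0.28).

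In BAT, limma called 0 of the 6 creatine genes and 0.0284% of all genes, and 0 of the 6 had an unadjusted p below 0.05 by limma or by the methods' t-test. No creatine gene was free of overlap, against 7.23% of all genes. *Ckb*, the kinase of creatine cycling in thermogenic fat, read 6.65, 6.69, 6.47 and 6.92 in WT mice and 6.14, 5.89, 6.73 and 6.73 in KO mice. KO mice 1 and 2 lay below every WT mouse and KO mice 3 and 4 lay within the WT range. The log2 change was -0.31 (SE 0.19, limma adjusted p = 0.548), with a 95% interval from -0.73 to 0.11. The mean of the 9 brown adipocyte markers was 8.29 to 8.54 in WT BAT and 7.84 to 7.93 in KO BAT, with 0 of the 9 called by limma, and its part in the *Ckb* values was not tested.

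*Slc6a8* read 7.21, 6.70, 7.14 and 6.76 in WT BAT and 6.92, 6.65, 7.15 and 7.00 in KO BAT, a change of -0.02 (SE 0.14) with an interval from -0.34 to 0.30. *Gamt* read 4.27, 4.14, 3.89 and 3.80 against 4.30, 4.05, 4.10 and 3.97, a change of 0.08 (SE 0.12). *Gatm* read 2.20, 2.23, 2.84 and 2.16 against 2.66, 2.44, 1.90 and 1.96, a change of -0.12 (SE 0.20). *Ckmt1* ranged from 1.96 to 2.23 in WT mice and from 1.91 to 2.31 in KO mice, a change of 0.03 (SE 0.10).

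*Ckmt2* in BAT went with skeletal muscle markers. It read 1.83, 3.85, 4.82 and 1.92 in WT mice and 1.74, 5.28, 1.77 and 1.94 in KO mice. *Acta1* read 3.86, 8.77, 9.17 and 3.38 in the same WT mice and 4.40, 9.28, 4.52 and 3.66 in the KO mice. The 3 mice with high *Ckmt2* were the 3 with *Acta1* above 8, and the order of the 3 was the same for both genes and for the mean of the 18 muscle markers. *Ckm*, the muscle-type cytosolic kinase, was at 4.49, 5.23 and 5.33 in these mice and between 2.79 and 3.31 in the others. The *Ckmt2* change was -0.42 (SE 0.87, limma adjusted p = 0.891) over all mice, -0.06 (SE 0.12) without these 3 arrays and 0.02 (SE 0.15) with the mean of the muscle markers as a covariate.

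In the 5 BAT arrays with low muscle markers *Ckmt2* lay between 1.74 and 1.94, below the array medians of 2.82 to 2.86, while the brown adipocyte markers were high in all 8. The other creatine genes did not follow the muscle markers in this way. Without the 3 arrays the change was -0.26 for *Ckb* (limma adjusted p = 0.857), 0.04 for *Slc6a8*, 0.09 for *Gamt*, -0.01 for *Gatm* and 0.05 for *Ckmt1*, and 0 of the 6 genes were called. With the mean of the muscle markers as a covariate the *Ckb* change was -0.37 (SE 0.16, limma unadjusted p = 0.0402, adjusted p = 0.365), and 0 of all genes were called.

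**Figure D5:**
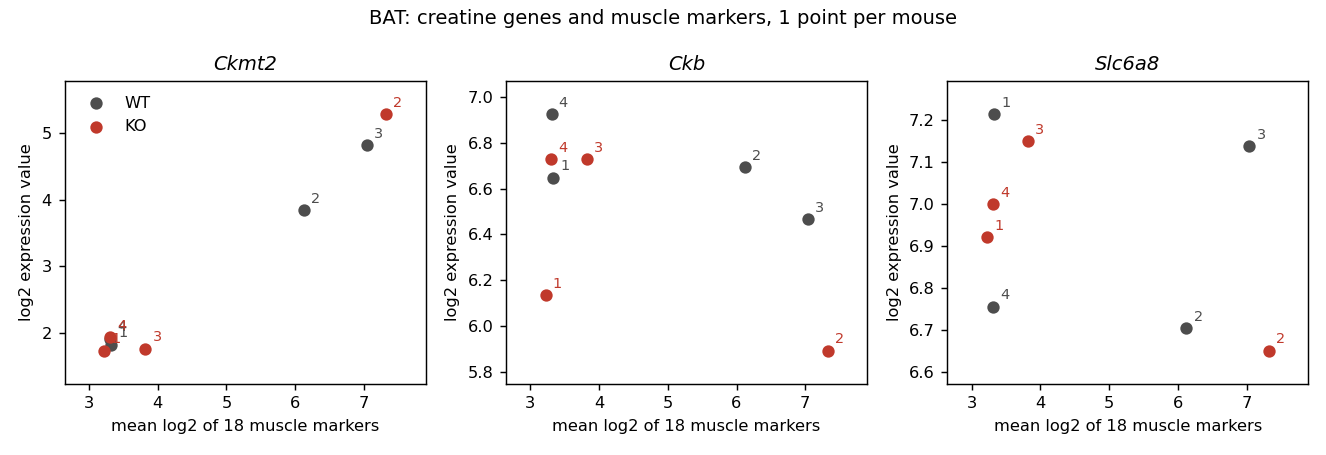
Log2 expression of *Ckmt2*, *Ckb* and *Slc6a8* in BAT (vertical axes, each with its own range) against the mean log2 value of 18 skeletal muscle markers (horizontal axes), 1 point per mouse, numbered by mouse. *Ckmt2* is at 3.85, 4.82 and 5.28 in the 3 mice with high muscle markers and at most 1.94 in the other 5, while *Ckb* stays between 5.89 and 6.92 and *Slc6a8* between 6.65 and 7.21.

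Of the 35 surrounding genes limma called 0 in BAT, with 7 at an unadjusted p below 0.05 and 8 by the methods' t-test. Of all 24646 genes, 3127 had an unadjusted p below 0.05 by limma and 2803 by the methods' t-test. *Alpl*, whose product is a phosphocreatine phosphatase of thermogenic fat, read 4.02, 4.35, 3.96 and 4.48 in WT mice and 3.67, 3.54, 3.41 and 3.84 in KO mice. The groups did not overlap, and the change of -0.58 (SE 0.14) did not pass the test (limma adjusted p = 0.137). *Mat2a*, which encodes the catalytic subunit of S-adenosylmethionine synthesis, had WT values of 7.79 to 8.68 and KO values of 6.97 to 7.64, a change of -0.86 (limma adjusted p = 0.143). The others with the smallest p-values were *Vdac3* (-0.16), *Gcsh* (0.24), *Shmt2* (-0.29) and *Mat2b* (0.27).

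Whether the change of a gene differed between tissues was tested on differences within a mouse number. The labels give the same mouse numbers in all 4 tissues, and equal numbers of a genotype were taken as the same mouse. With group means taken off, arrays of equal number in different tissues correlated over all genes at -0.145 to 0.299. The test covered all 24646 genes for each of 6 pairs of tissues. Between liver and eWAT all 3 genes called in eWAT differed: the liver change minus the eWAT change was 1.63 for *Slc6a8*, 1.01 for *Gatm* and 0.96 for *Ckb* (limma adjusted p = 0.0119, 0.0279 and 0.0294). Over all genes, 8.37% differed between these tissues. The *Slc6a8* call remained without any 1 mouse of the 8. The *Gatm* call was lost without any 1 of the mice other than KO mouse 2 (adjusted p between 0.0577 and 0.0808). The *Ckb* call was lost without WT mouse 2, WT mouse 4, KO mouse 1, KO mouse 3 or KO mouse 4 (adjusted p between 0.0634 and 0.0905), and also with the arrays taken as unpaired (adjusted p = 0.144). *Slc6a8* and *Gatm* kept their calls as unpaired (limma adjusted p = 0.0138 and 0.0487).

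Between eWAT and BAT, *Slc6a8* differed, with an eWAT change 1.66 log2 units further down than the BAT change (limma adjusted p = 0.0356), and 6.93% of all genes differed. *Gatm* (-1.10) and *Ckb* (-1.11) did not pass (limma adjusted p = 0.0659 and 0.124). The *Slc6a8* call was lost without any 1 of the mice other than KO mouse 2 (adjusted p between 0.0604 and 0.106), while *Gatm* passed without WT mouse 3 (adjusted p = 0.0354). Without the 3 mice with muscle in BAT, a choice made after seeing the data, or without KO mouse 2, all 3 passed. Over all 24646 genes, 1252 were called without the 3 mice and 2526 without KO mouse 2, against 1707 with all mice. KO mouse 2 is 1 of those 3 mice, so these exclusions overlap, and the part of muscle in them was not tested. Without those 3 mice the differences were -2.10 for *Slc6a8*, -1.60 for *Gatm* and -1.39 for *Ckb* (limma adjusted p = 0.00295, 0.0143 and 0.00578).

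Between eWAT and iWAT none of the 6 genes passed, and 0.0% of all genes did, with 2651 genes at an unadjusted p below 0.05. The differences were -1.41 for *Slc6a8*, -1.33 for *Ckb* and -1.25 for *Gatm* (limma adjusted p = 0.261, 0.217 and 0.363), so a change in eWAT that is particular to that depot among the white fats was not shown. Of the 6 genes, 3 had an unadjusted p below 0.05. Without KO mouse 2, *Slc6a8* (-1.88) and *Ckb* (-1.67) passed (limma adjusted p = 0.0141 and 0.0280), and 401 of all 24646 genes were called. Without any other 1 mouse, 0 of all genes were called. For the other pairs limma called 0 of the 6 genes, with 1 at an unadjusted p below 0.05 (*Gamt* between liver and iWAT) and 0.00406% of all genes were called between liver and iWAT, 0.0893% between liver and BAT and 0.0% between iWAT and BAT. At an unadjusted p below 0.05, 2362 genes differed between iWAT and BAT.

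The genes whose pattern was most like each creatine gene were read from Pearson's r over the 32 arrays after the mean of each tissue was taken off. These values are a description, since arrays of a tissue share a table and a genotype difference. *Slc6a8* was closest to *Cstb* (r = 0.938), a cysteine protease inhibitor, *S1pr2* (0.930), a sphingosine-1-phosphate receptor, and *Sdcbp* (0.927), the gene of syntenin. *Ckb* was closest to *Trim29* (0.884), *Plin2* (0.866), a lipid droplet protein, and *Il10rb* (0.866), a cytokine receptor chain. *Gatm* was closest to *Mfap5* (0.856) and *Lum* (0.840), both of the extracellular matrix, and to *Gpr133* (0.840), an adhesion receptor.

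Among themselves, *Ckb* and *Slc6a8* had r = 0.801, *Gatm* and *Slc6a8* 0.782, and *Ckb* and *Gatm* 0.591. With the mean of each tissue and genotype taken off, these were 0.601, 0.589 and 0.204. *Ckmt2* was closest to *Tmod4* (0.971), *Kbtbd10* (0.969) and *Mybpc1* (0.965), genes of the muscle sarcomere and its surroundings, and its r with the other creatine genes lay between -0.250 and 0.126. *Gamt* was closest to *Mtap1a* (0.734), *Ret* (0.708) and *Tecr* (0.687), and *Ckmt1* to *Bdnf* (0.772), *Grhl3* (0.747) and *Gm13272* (0.742).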

How the data were processed

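Total RNA (100 ng per sample, labelled with biotin) of liver, eWAT, iWAT and BAT was measured on arrays. Each tissue has its own deposited table with a log2 value for each gene and mouse. Software, probe summary and normalization are not given in the sources used here. The values of 840 genes are averages of several probe sets, and 1 or 2 entries per table without a usable name were left out. No intensities or depth were used.

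KO and WT mice (4 each) were compared within each table with limma 3.58.1 in R 4.3.3, with Benjamini-Hochberg adjustment over all 24646 genes and a threshold of 0.05. Changes between tissues were compared with limma on differences within a mouse number. Alternatives were quantile normalization, equal array medians, a trended and robust prior, array weights, dim genes left out, the methods' t-test, the replicate number as a block, covariates for muscle (without *Ckm*) and B cells, 3 BAT arrays left out, each array left out, and unpaired mouse numbers. A macrophage covariate, 4 iWAT arrays left out and 3 mice left out were added after seeing the data. The procedure was tested on simulated data. Figures were drawn with matplotlib.

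The 6 genes were given by name. The lists of 35 surrounding genes (1 further listed gene is not reported here) and of cell type markers, the tests and the alternatives were chosen with earlier results of these data known. Named genes are the 6 genes, *Gpr146*, *Acta1* in BAT, called list genes (at most 5 per list and tissue, otherwise the 2 with the smallest p) and the 3 genes most like each creatine gene. Marker genes, and *Ckm*, *Alpl* and *Slc16a12* where not called, were named after their values were seen. *Adgre1* was matched through its older symbol *Emr1*, and other symbols are those of the files. Promoter windows are from RefSeq on GRCm38.p6.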

Additional observations from a re-analysis of the deposited data

Results flagged for a closer look

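In 3 of 48 groups of 4 values, 1 mouse stood apart from the rest by a gap that is large for the range of its group. Chance gives this in about 1 in 20 groups. These were *Ckb* in eWAT of KO mouse 2 (8.17, the highest of its group), *Ckmt2* in BAT of KO mouse 2 (5.28, the highest) and *Gatm* in BAT of WT mouse 3 (2.84, the highest). In eWAT the macrophage markers of KO mouse 2 averaged 9.18, and in BAT the muscle markers of KO mouse 2 and WT mouse 3 averaged 7.32 and 7.04. For *Ckb* in eWAT and *Ckmt2* in BAT, the knockout changes with these markers as a covariate are given above. The part of the markers in the values of these single mice was not tested.

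In 4 cases the knockout change differed between a pair of tissues. The liver change minus the eWAT change was 0.96 for *Ckb*, 1.01 for *Gatm* and 1.63 for *Slc6a8*, and the eWAT change minus the BAT change was -1.66 for *Slc6a8* (limma adjusted p = 0.0294, 0.0279, 0.0119 and 0.0356).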

How the results depend on the processing

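The number of creatine genes called in eWAT was 3 and became 0 with the methods' t-test and with the macrophage markers as a covariate. It was 2 to 3 with 1 array left out. In liver, iWAT and BAT it was 0 under every alternative. The number whose change differed between liver and eWAT was 1 to 3 with 1 mouse left out. Between eWAT and iWAT it was 0 to 2, and between eWAT and BAT it was 0 to 3 with 1 mouse left out and 3 without the 3 mice with muscle in BAT.

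Over all genes, the calls ran from 2 to 300 in liver (163 as reported), 1 to 5429 in eWAT (3758), 0 to 916 in iWAT (0) and 0 to 80 in BAT (7). With the muscle markers as a covariate *Gatm* in eWAT was not called (-1.05, adjusted p = 0.0608). The replicate numbers were not taken to pair WT and KO arrays, since the labels give no shared batch for a number and not every same-numbered pair of a tissue deviated together. These pairs correlated at -0.06 to 0.11 in liver, 0.00 to 0.16 in eWAT, -0.38 to 0.67 in iWAT and 0.01 to 0.22 in BAT. In iWAT 3 of the 4 pairs lay between 0.16 and 0.67, and in BAT 3 of 4 between 0.12 and 0.22. With the replicate block the 3 genes stayed called in eWAT (adjusted p = 0.0111 for *Ckb*, 0.0142 for *Slc6a8* and 0.0199 for *Gatm*), 3405 of all genes were called there, and 0 of the 6 were called elsewhere. Outside eWAT the block gave a limma unadjusted p below 0.05 for *Gamt* (0.0331) and *Gatm* (0.0424) in liver. In iWAT it did so for *Ckmt1* (0.0257) and *Slc6a8* (0.0328), with adjusted p between 0.208 and 0.354 for all of these. Arrays correlated best with their own number in 4 of 8 cases in liver and BAT and 5 of 8 in eWAT and iWAT. That is more often than a random pick among 4 arrays gives on average, and whether the numbers mark a batch was not tested.

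Changes of sign were seen only for changes that were not called. With quantile normalization *Ckmt2* in liver was -0.0063, *Gatm* in iWAT -0.020, *Ckb* in iWAT 0.078, *Ckmt1* in BAT -0.0062 and *Slc6a8* in BAT 0.031. With equal array medians *Ckmt2* in liver was -0.00055, and with array weights *Ckb* in iWAT was 0.012. With muscle markers as a covariate *Ckmt1* in eWAT was 0.020, *Ckb* in iWAT 0.0023 and *Ckmt2* in BAT 0.020. With macrophage markers as a covariate *Ckmt1* in eWAT was 0.0082, and with B cell markers *Gatm* in iWAT was -0.00099. Without the 4 iWAT arrays *Gatm* was -0.52 and *Ckmt2* 0.0043, and without the 3 BAT arrays *Slc6a8* was 0.039.

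With 1 array left out, the changes with both signs ranged from -0.058 to 0.13 for *Ckmt2* and -0.13 to 0.081 for *Slc6a8* in liver, -0.052 to 0.0083 for *Ckmt1* in eWAT, and -0.22 to 0.23 for *Gatm* and -0.29 to 0.0055 for *Ckb* in iWAT. In BAT they ranged from -0.26 to 0.040 for *Gatm*, -1.29 to 0.15 for *Ckmt2*, -0.11 to 0.071 for *Slc6a8* and -0.045 to 0.089 for *Ckmt1*. The cause of these shifts was not tested. Dim probes limit *Ckmt1* in every tissue, *Ckmt2* in liver and white fat, and *Gatm* in liver, iWAT and BAT. Their means over WT and KO arrays lay below the median of all genes there, so the fit with dim genes left out did not hold them.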
